A study of Mus musculus with 29 samples.

Results

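The Ifit genes and the Ifitm genes are 2 families of antiviral effectors that are induced by interferon. Ifit1, Ifit2, Ifit3, Ifit3b, Ifitm1, Ifitm2 and Ifitm3 were chosen by name, by a rule that uses no measured value but was proposed with earlier results of these data known, and mapped to their Ensembl identifiers, which gave 7 of the 48709 genes in the count tables. RNA was sequenced in 29 libraries of mouse from 3 experiments, each of which compared anti-miR-99b, a locked nucleic acid (LNA) inhibitor of miR-99b-5p, with sc-control, an LNA of scrambled sequence. In the PFC experiment, C57BL/6J mice aged 3 months were injected into the prefrontal cortex (PFC) with lipid nanoparticles that carried the inhibitor in 3 mice and sc-control in 3 others, and the tissue was collected 5 days later. In the microglia experiment, primary microglia of CD1 pups at P1, shaken off mixed glia and grown in L929-conditioned medium, gave 4 libraries after the inhibitor and 4 after sc-control. In the co-culture experiment, CD1 cortical neurons from embryonic day E17.5 received P1 CD1 microglia that had met the LNA beforehand, the inhibitor in 7 libraries and sc-control in 8. The labels name no transgene or deletion in any group. The comparison asked whether these 7 genes changed when miR-99b-5p was inhibited, and how high they stood without the inhibitor.

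Interferons bind receptors at the cell surface, whose kinases activate STAT proteins that join with IRF9. This complex binds the interferon-stimulated response element in the promoters of many antiviral genes, the Ifit genes among them. IFIT proteins are cytosolic and bind foreign RNA or translation factors, so that viral mRNA is not translated. IFITM proteins sit in the plasma membrane and in endosomes and hinder the fusion of viral envelopes with the cell. Microglia, the resident macrophages of the brain, respond strongly to type I interferon, and neurons and astrocytes respond as well.

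The inhibited miRNA is shown first, since its seed, the bases 2 to 8 given in capitals, has a main but not the only part in its pairing with mRNAs. miR-99b-5p is 22 bases long and lies at chr17:17830194-17830215 on the plus strand (GRCm38.p6, RefSeq).
mmu-miR-99b-5p: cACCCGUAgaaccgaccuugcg
The seed is shared by 3 mature mouse miRNAs in the table, miR-99a-5p, miR-99b-5p and miR-100-5p. The sequence that pairs with the seed, TACGGGT, and its shorter form ACGGGT, were searched in the 10 GENCODE M21 transcripts of the 7 members. Neither was found in any of the 10. Over all 55450 genes, 1.86% had TACGGGT in a transcript. This says only that these letters are not in those transcripts.

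Ifit2, Ifit3, Ifit3b and Ifit1 lie in this order on the plus strand of chromosome 19, at chr19:34550694-34576419, chr19:34583531-34588731, chr19:34607970-34613401 and chr19:34640871-34650009 (GRCm38). Ifitm2 (chr7:140954837-140955987, minus strand), Ifitm1 (chr7:140967221-140969825, plus strand) and Ifitm3 (chr7:141009586-141010770, minus strand) lie side by side on chromosome 7. The RefSeq promoter windows of 300 bases, which reach 50 bases past the start, were available for all 7 members. They were searched on both strands for the core of the interferon-stimulated response element, GAAANNGAAA. Of all 32851 windows of this length, 3.44% held at least 1 match and 0.225% held 2 or more. The windows of Ifit1, Ifit3, Ifit3b and Ifitm3 held 2 matches each and that of Ifitm2 held 1. Ifitm1 and both windows of Ifit2 held none, and no match says nothing about the factor. The stretches with 2 matches are shown because 3 of them belong to genes that rose together in the microglia, and the matches are in capitals.
Ifit1, chr19:34640770-34640828, plus strand: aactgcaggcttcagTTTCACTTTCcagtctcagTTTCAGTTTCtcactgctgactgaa
Ifit3, chr19:34583358-34583431, plus strand: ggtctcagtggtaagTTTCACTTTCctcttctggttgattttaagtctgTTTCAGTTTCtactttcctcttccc
Ifit3b, chr19:34607754-34607827, plus strand: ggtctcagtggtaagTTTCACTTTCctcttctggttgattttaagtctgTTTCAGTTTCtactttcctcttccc
Ifitm3, chr7:141010701-141010757, minus strand: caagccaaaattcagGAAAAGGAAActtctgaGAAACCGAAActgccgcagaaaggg
In the 3 Ifit genes the matches lie on the strand opposite to the gene. They begin 104 and 85 bases before the start of Ifit1, 156 and 122 before that of Ifit3, and 188 and 154 before that of Ifit3b. In Ifitm3 they lie on the strand of the gene and begin 2 and 19 bases after the RefSeq start. The windows of Ifit3 and Ifit3b share an identical run of 169 bases, which holds both of their matches. A gamma-activated site (TTCNNNGAA), found in 8.3% of all windows, was present in Ifitm3 and in 1 window of Ifit2. In Ifitm3 it begins 13 bases after the start and overlaps the second response element match. All matches describe letters, not binding.

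Libraries held 21324156 to 37901110 reads counted on genes. Counts of single members per library were 30 to 867 (PFC), 13 to 8488 (microglia) and 0 to 636 (co-cultures). Levels are given as CPM, counts scaled to a common library size, with TMM scaling within 1 experiment unless said otherwise. The labels give the libraries 4 lane numbers, with both treatments under every lane number used by an experiment. Some microglia and co-culture libraries carry the same sample and lane numbers. A lane number is thus not the same lane across experiments, and lanes are compared only within an experiment. Microglia and neuron markers were compared in the sc-control libraries, scaled together. The summed level of 10 microglia markers was 112-fold higher in microglia than in co-cultures and 25.9-fold higher than in the PFC. The summed level of 6 neuron markers was highest in the PFC. On the same scale 5 astrocyte markers summed to a mean of 1823 CPM in the PFC, 272 CPM in the microglia and 1804 CPM in the co-cultures. Astrocyte markers were thus present in both cultures. In the microglia libraries the 6 endothelial markers summed to 54.4 to 64.8 CPM, nearly all of it Flt1 (59.2 ± 3.33 with anti-miR-99b and 58.2 ± 4.45 with sc-control), with Cldn5 at 0 in all of them. Hba-a1 and Cd3e were at 0 there and the blood marker S100a8 at 1.97 ± 0.127 and 1.91 ± 0.299 CPM (SD, n = 4 each), and Mbp, made by oligodendrocytes, was detected. The libraries are poly(A)-selected, so miR-99b-5p itself was not measured. Neither the labels nor the methods say which libraries came from separate cultures, so the p-values of the cultures measure the spread between these libraries, which may be technical. In bulk RNA, fewer cells of a type and less RNA per cell cannot be told apart.

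Reads were single and 50 bases long, and near-identical copies limit some of the counts. Of the 50-base runs in the Ifit3 transcript, 51.2% occur also in Ifit3b, and 45.0% of those of Ifit3b occur in another gene, mostly Ifit3. For Ifitm2 the share was 48.5%, mostly with Gm45717, an annotated gene that overlaps it on the same strand and had 0 counts in every library, and with other predicted genes. The share was 7.13% for Ifit1, whose partners were Ifit1bl1 and Ifit1bl2, 10.0% for Ifitm3 and 5.02% for Ifitm1. No 50-base run of Ifit2 was shared. How the authors' counting treated reads with several places is not given in the sources used here, so the split between Ifit3 and Ifit3b and the counts of Ifitm2 are uncertain.

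In the microglia, all 4 Ifit genes were higher with anti-miR-99b and none of the 3 Ifitm genes passed the test. Ifit1, Ifit2, Ifit3 and Ifit3b rose 1.5- to 1.7-fold (edgeR quasi-likelihood test, Benjamini-Hochberg adjusted p under 0.1 and log2FC beyond 0.1), so that 4 of 7 members were called higher, against 0.435% of the 14953 genes tested. The median log2FC of the 7 members was 0.61, against 0.00 over all genes.

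Ifit1, which binds the 5′ end of foreign mRNA, stood at 27.4, 16.0, 23.1 and 22.5 CPM in the anti-miR-99b libraries (replicates 1, 3, 4 and 5) and at 17.5, 16.6, 11.5 and 10.9 CPM in the sc-control libraries (replicates 2, 3, 4 and 6). Replicate 3 of anti-miR-99b lay within the range of the controls and the other 3 lay above it. The log2FC was 0.69 ± 0.13 (SE; adjusted p = 0.0238, edgeR).
Ifit2, an RNA-binding relative that restricts viruses in neurons, stood at 64.3, 40, 49.5 and 51.9 CPM with anti-miR-99b and at 36.7, 42.9, 27.9 and 28.7 CPM with sc-control. Replicate 3 of anti-miR-99b again lay among the controls. The log2FC was 0.61 ± 0.11 (adjusted p = 0.0238, edgeR).
Ifit3, which binds and stabilizes other IFIT proteins, stood at 14.0, 7.87, 11.4 and 11.2 CPM with anti-miR-99b and at 7.55, 8.38, 5.76 and 5.88 CPM with sc-control. Again 3 of 4 anti-miR-99b libraries lay above every control. The log2FC was 0.71 ± 0.13 (adjusted p = 0.0238, edgeR).
Ifit3b, its near copy, stood at 10.9, 6.81, 9.36 and 8.84 CPM with anti-miR-99b and at 6.08, 6.26, 4.33 and 4.74 CPM with sc-control. It was the only member whose groups did not overlap, a pattern seen in 1.65% of all genes in this direction. The log2FC was 0.77 ± 0.12 (adjusted p = 0.0106, edgeR), and the exact permutation test on log2(CPM + 0.5) gave p = 0.0286, the smallest that 4 against 4 libraries allow. The same permutation test gave p = 0.0857 for Ifit1 and p = 0.0571 for both Ifit2 and Ifit3. With Ifit3 and Ifit3b counted as 1 feature the log2FC was 0.73, and it was called.

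The Ifitm genes moved less in the microglia. Ifitm3, the main endosomal family member, stood at 236, 224, 244 and 265 CPM with anti-miR-99b and at 254, 202, 199 and 189.6 CPM with sc-control. The groups overlapped through sc-control replicate 2, and the log2FC of 0.20 ± 0.06 did not pass (adjusted p = 0.356, edgeR). Without that library the log2FC was 0.30 and Ifitm3 was called (adjusted p = 2.38e-04, edgeR). It was also called with a RUVs factor (0.22, adjusted p = 0.00415) and without a filter on low counts (0.21, adjusted p = 4.80e-09), both by edgeR. Without the filter its unadjusted edgeR p fell from 0.00366 to 7.62e-12 at nearly the same log2FC. A p so small from 4 against 4 libraries is not taken as a measure of the spread, so this call carries little weight. In all, 4 alternatives called it and 12 did not. Among the 12 were DESeq2, RLE factors (0.20, adjusted p = 0.343) and lane as a block (0.20, adjusted p = 0.363), the latter 2 by edgeR. Ifitm2, whose protein also lies in endosomes, had a mean of 41.3 ± 1.19 CPM (SD, n = 4) with anti-miR-99b and of 39.1 ± 2.76 CPM (SD, n = 4) with sc-control. Ifitm1, found mostly at the plasma membrane, was low at 0.803 ± 0.0778 against 0.636 ± 0.137 CPM (SD, n = 4 each), which rests on 13 to 29 counts per library. Their log2FC were 0.08 ± 0.04 and 0.35 ± 0.22, with adjusted p of 0.817 and 0.868 (edgeR).

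Lane and library bear on these values. The sc-control libraries of lane 5 (replicates 2 and 3) stood above those of lane 6 (replicates 4 and 6) for all 4 Ifit genes. Within lane 5 (2 against 2) the difference of means of log2(CPM + 0.5) was 0.29 for Ifit1, 0.35 for Ifit2, 0.38 for Ifit3 and 0.45 for Ifit3b. Within lane 6 (2 against 2) it was 1.00, 0.83, 0.90 and 0.93. All of these were above 0, and with lane as a block the same 4 genes were called. DESeq2 called only Ifit3b, and the calls of the other 3 genes were lost without sc-control replicate 4, sc-control replicate 6, anti-miR-99b replicate 1 or anti-miR-99b replicate 5, with Ifit3b lost only in the first of these. The summed microglia markers were 10578 to 10889 CPM with anti-miR-99b and 10360.2 to 10732 CPM with sc-control, and none of the 10 was called. Mbp was at 95.5 ± 1.96 against 102 ± 4.97 CPM (SD, n = 4 each, log2FC -0.10 ± 0.03, adjusted p = 0.510, edgeR), and the 4 fibroblast markers summed to 44 to 64.6 against 31 to 55.1 CPM, with 0 called. The part of these cells in the result was not tested.

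**Figure D1:**
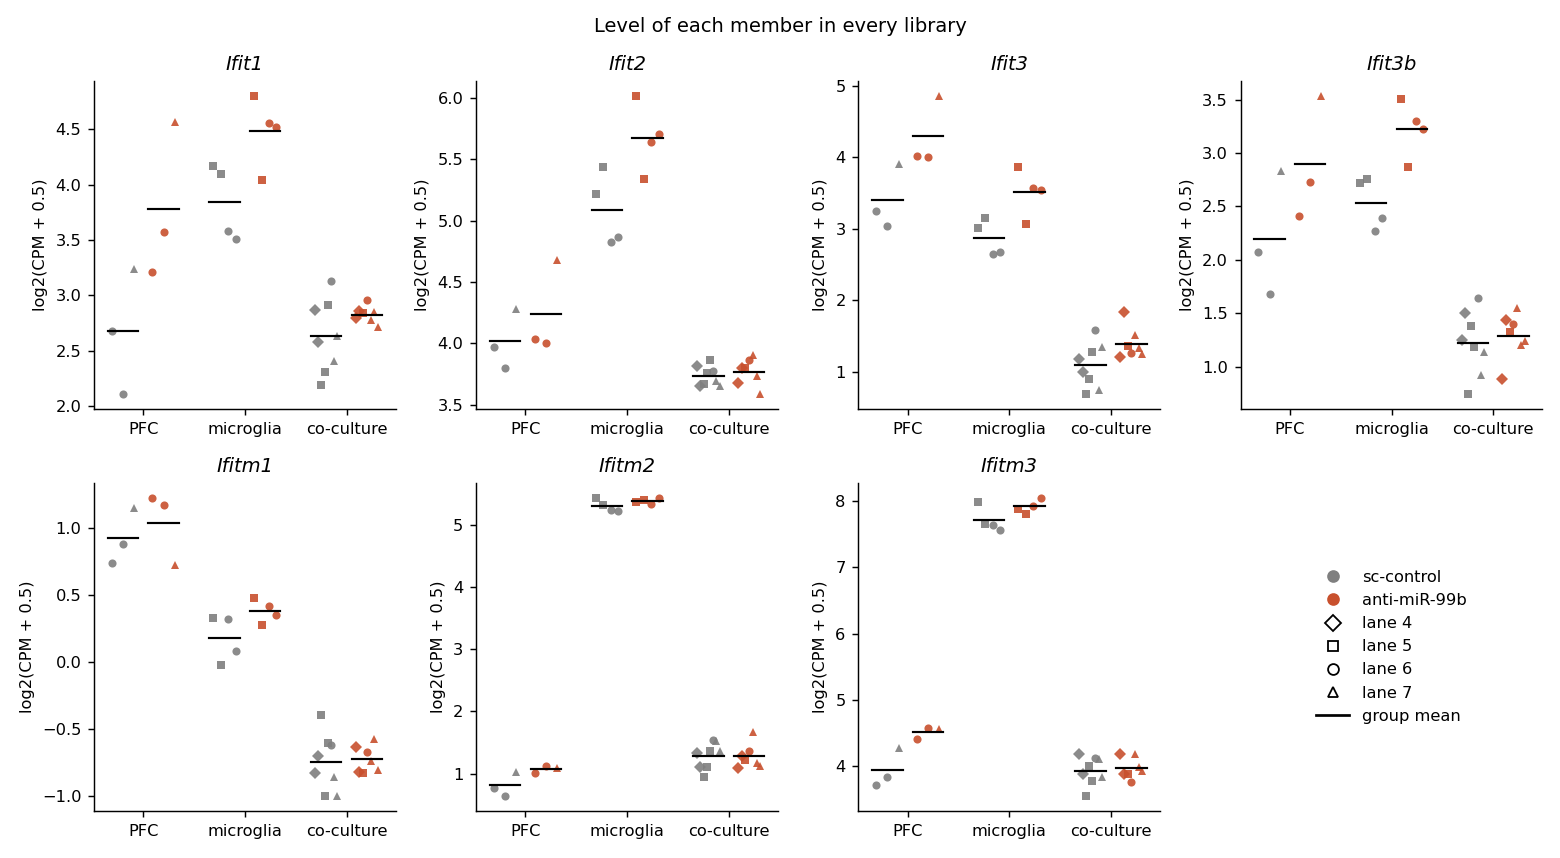
Level of each member in every library as log2(CPM + 0.5), with CPM scaled within each experiment. Grey marks are sc-control and orange marks anti-miR-99b, the shape gives the lane number within an experiment and black lines are group means. In the microglia the anti-miR-99b libraries lie above every control for the 4 Ifit genes, except replicate 3 (lane 5) for Ifit1, Ifit2 and Ifit3. The lane 7 libraries of the PFC are the highest of their group for the 4 Ifit genes, and the co-culture groups overlap for every member.

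In the PFC, all 7 members had a log2FC above 0, but none passed the test (edgeR, adjusted p under 0.1 and log2FC beyond 0.2), which called 15 genes higher, or 0.0864% of the 17364 tested, and 0 lower. At an unadjusted p under 0.05, Ifit1, Ifit3 and Ifitm3 were higher, 3 of 7 against 5.17% of all genes, and DESeq2 called Ifitm3 alone. The median log2FC of the members was 0.57, against 0.00 over all genes.

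Ifit1 stood at 8.74, 11.4 and 23.2 CPM in mice given anti-miR-99b (replicates 1, 2 and 3) and at 5.92, 3.81 and 8.97 CPM in the sc-control mice (replicates 2, 3 and 4). The groups overlapped by a narrow margin, and in both of them the library of lane 7 (replicate 3 of anti-miR-99b, replicate 4 of sc-control) was the highest. The log2FC was 1.21 ± 0.36 (adjusted p = 0.505, edgeR), and 0.68 without anti-miR-99b replicate 3.
Ifit3 stood at 15.7, 15.6 and 28.5 CPM with anti-miR-99b and at 8.99, 7.75 and 14.5 CPM with sc-control. Every anti-miR-99b library was above every control, although the lane 7 control came close to the lane 6 libraries of the other group. The log2FC was 0.94 ± 0.27 (adjusted p = 0.465, edgeR), and 0.58 without the same library.
Ifitm3 stood at 20.8, 23.4 and 23.1 CPM with anti-miR-99b and at 12.6, 13.7 and 18.9 CPM with sc-control. These groups did not overlap either, and here the anti-miR-99b library of lane 7 did not stand out. The log2FC was 0.57 ± 0.14 (adjusted p = 0.342, edgeR).
Groups without overlap in this direction were seen in 2 of 7 members and in 7.52% of all genes, and the exact permutation p of 0.1 for both genes is the smallest that 3 against 3 mice allow.

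The other members were closer between the groups. Ifit3b stood at 4.82, 6.15 and 11.1 CPM against 3.71, 2.71 and 6.61 CPM, with a log2FC of 0.76 ± 0.35 that was 0.33 without anti-miR-99b replicate 3 and 1.2 without sc-control replicate 4. Ifit2 stood at 15.9, 15.5 and 25.1 CPM against 15.2, 13.4 and 18.9 CPM, and its log2FC of 0.25 ± 0.19 became -0.02 without anti-miR-99b replicate 3. Only the lane 7 mouse was clearly above the controls for Ifit2. Ifitm2 had 1.61 ± 0.0889 against 1.27 ± 0.250 CPM and Ifitm1 had 1.58 ± 0.374 against 1.41 ± 0.280 CPM (SD, n = 3 each), both from 30 to 59 counts per library. Their log2FC were 0.34 ± 0.20 and 0.15 ± 0.24, and the adjusted p of the 4 genes lay between 0.660 and 0.880 (edgeR).

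The number of calls in the PFC differed between models. With lane as a block in the same test, Ifit1 (log2FC 1.17, adjusted p = 0.0256), Ifit3 (0.93, adjusted p = 0.00424), Ifit3b (0.76, adjusted p = 0.0959) and Ifitm3 (0.58, adjusted p = 0.0637) were called higher by edgeR, 4 of 7 members against 0.420% of all genes. Within lane 6 (2 against 2) the difference of means of log2(CPM + 0.5) was 1.00 for Ifit1, 0.87 for Ifit3, 0.69 for Ifit3b and 0.72 for Ifitm3. Within lane 7 (1 against 1) it was 1.33, 0.95, 0.71 and 0.28. Each of these was above 0, for genes picked because the block fit called them higher. In lanes 6 and 7 the other members had 0.13 and 0.40 (Ifit2), 0.36 and 0.07 (Ifitm2), and 0.39 and -0.43 (Ifitm1). Without sc-control replicate 4, Ifit3 and Ifitm3 were called. The same control also had the highest microglia marker sum of its group: the 10 markers summed to 541, 595 and 555 CPM after anti-miR-99b (replicates 1, 2 and 3) and to 442, 429 and 569.7 CPM after sc-control (replicates 2, 3 and 4). Of these markers 9 of 10 had a log2FC above 0 and none was called, and the blood markers summed to 48.8 to 92.5 against 55.7 to 69.0 CPM. The part of cell number in the members' values was not tested.

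In the co-cultures the 2 groups overlapped for every member. None of the 6 members tested was called higher by edgeR (adjusted p under 0.05 and log2FC beyond 0.1), against 0.846% of the 16193 genes tested, and DESeq2 called none. At an unadjusted p under 0.05 only Ifit3 was higher, 1 of 6 against 6.40% of all genes. The median log2FC of the 6 members was 0.07, against 0.00 over all genes.

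Ifit3 ranged from 1.81 to 3.08 CPM with a median of 2.02 in the 7 anti-miR-99b co-cultures and from 1.11 to 2.51 CPM with a median of 1.63 in the 8 controls. The groups overlapped, with 1 anti-miR-99b library above the highest control and all 7 above the control median. The log2FC was 0.40 ± 0.15 (adjusted p = 0.227, edgeR), and the exact permutation test gave p = 0.0502. Ifit1 ranged from 6.08 to 7.27 CPM (median 6.67) against 4.07 to 8.25 CPM (median 5.60), so that its spread was wider in the controls, with a log2FC of 0.19 ± 0.11 (adjusted p = 0.483, edgeR). Ifit2 ranged from 11.5 to 14.5 against 12.1 to 14.1 CPM and Ifitm3 from 13.1 to 17.6 against 11.2 to 17.7 CPM, with log2FC of 0.03 ± 0.05 and 0.03 ± 0.08. Ifit3b and Ifitm2 had log2FC of 0.10 ± 0.14 and -0.01 ± 0.12. Ifitm1 had 0 to 8 counts per library and was not tested. In the 2 control libraries with a count of 0 (replicates 5 and 12), 3 counts would be 0.124 and 0.114 CPM, which is the upper limit, for counting error only.

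Microglia markers did differ in these co-cultures. Csf1r, the receptor that microglia need to survive, C1qa, Trem2 and Cx3cr1 were called higher with anti-miR-99b, 4 of 10 against 0.846% of all genes. The 10 markers summed to 118 to 134 CPM against 99.8 to 125 CPM. The log2FC of the 4 called markers were 0.34 ± 0.05, 0.34 ± 0.06, 0.70 ± 0.11 and 0.39 ± 0.08 (adjusted p = 0.00101, 0.00106, 0.00113 and 0.0107, edgeR). Their part in the members' values was not tested. The neuron markers summed to 3607 to 3837 CPM with anti-miR-99b and 3642 to 3774 CPM with sc-control.

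**Figure D2:**
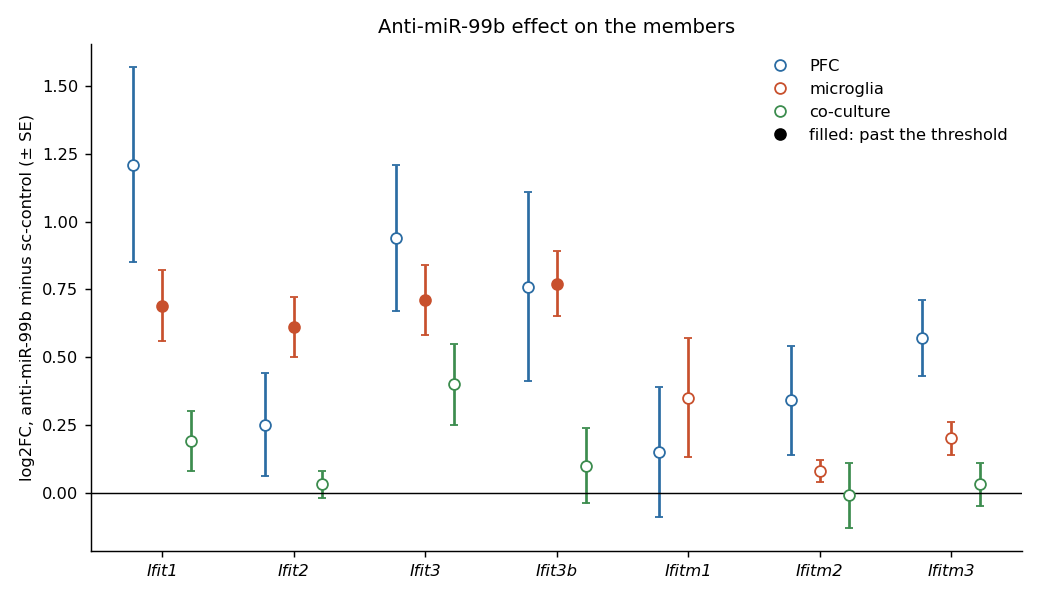
Difference between anti-miR-99b and sc-control for each member as log2FC ± SE from edgeR, in the PFC (blue), the microglia (orange) and the co-cultures (green). Filled points passed the threshold of their experiment: only the 4 Ifit genes of the microglia did, from 0.61 to 0.77, while the PFC points reach 1.21 with SE up to 0.36.

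The experiments were compared in 1 model over all 29 libraries. Ifitm3 was the only member called as changed differently in 2 experiments: its log2FC was larger by 0.54 ± 0.16 in the PFC than in the co-cultures (adjusted p = 0.0945, edgeR, threshold 0.1), 1 of 7 members against 1.95% of the 18963 genes tested. This value is close to the threshold, and the call was lost without PFC sc-control replicate 2 or 3, or without PFC anti-miR-99b replicate 1 or 2 (where Ifit1 was called instead). It was also lost without any of the microglia libraries other than sc-control replicate 2. The microglia libraries enter this contrast only through the shared filter, scaling and estimate of spread. DESeq2 called Ifit1 as well as Ifitm3. Between the PFC and the microglia no member was called, against 0.933% of all genes, and DESeq2 called none. At an unadjusted p under 0.05, 1 of 7 differed, Ifitm3, against 11.9% of all genes. Ifit2 had a difference of -0.36 ± 0.20 between these 2 experiments (adjusted p = 0.470, edgeR), so that its larger change in the microglia was not shown to differ. Between the microglia and the co-cultures no member was called, against 0.116% of all genes, and none by DESeq2. At an unadjusted p under 0.05, 2 of 7 differed, Ifit2 and Ifit3b, against 5.49%, with differences of 0.59 ± 0.16 and 0.68 ± 0.30 (adjusted p = 0.285 and 0.854, edgeR). The failure of a member to pass in the co-cultures is thus not a shown difference from the microglia.

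The level without inhibitor differed strongly between the experiments, most of all for Ifitm2 and Ifitm3. The baseline values are CPM per kilobase of exon with all libraries scaled together, which allows genes to be compared. Experiment is confounded with strain, age, culture, time to collection and sequencing lane or run, which cannot be told apart. In the sc-control microglia, Ifitm3 had 345 ± 41.7 and Ifitm2 66.2 ± 3.53 (SD, n = 4), followed by Ifit2 at 9.62 ± 1.90, Ifit1 at 5.88 ± 1.33, Ifit3 at 4.38 ± 0.764, Ifit3b at 2.97 ± 0.495 and Ifitm1 at 0.645 ± 0.135. Of these neighbours only Ifit1 and Ifit3 had ranges that overlapped. In the sc-control PFC the order was Ifitm3 at 21 ± 4.54, Ifit3 at 5.61 ± 1.89, Ifit2 at 3.79 ± 0.649, Ifit1 at 2.21 ± 0.906, Ifit3b at 2.04 ± 0.938, Ifitm2 at 1.82 ± 0.347 and Ifitm1 at 1.21 ± 0.234 (SD, n = 3). Here the ranges of Ifit3 and Ifit2, of Ifit1 and Ifit3b, and of Ifit3b and Ifitm2 overlapped. In the sc-control co-cultures it was Ifitm3 at 21.3 ± 3.14, Ifit2 at 3.16 ± 0.185, Ifitm2 at 2.89 ± 0.518, Ifit1 at 2.12 ± 0.522, Ifit3 at 0.928 ± 0.264, Ifit3b at 0.904 ± 0.229 and Ifitm1 at 0.0887 ± 0.0790 (SD, n = 8). The ranges of Ifit2 and Ifitm2, of Ifitm2 and Ifit1, and of Ifit3 and Ifit3b overlapped. Ifitm3 was thus the highest member in all 3 experiments and Ifitm1 the lowest.

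Tests of these baseline levels used the 15 sc-control libraries, with an adjusted p under 0.05 and a log2 difference beyond 1 (edgeR). Against the PFC, the microglia were higher in 4 of 7 members, against 26.4% of the 18274 genes tested. Ifitm2 was 35.3-fold higher (log2 difference 5.14 ± 0.11, adjusted p = 3.81e-24, edgeR) and Ifitm3 16.2-fold higher (4.02 ± 0.12, adjusted p = 4.68e-21, edgeR). Ifit1 and Ifit2 were 2.55- and 2.48-fold higher, while Ifit3 had a log2 difference of -0.40 ± 0.17 and Ifitm1 of -0.94 ± 0.28, short of the size required. Ifitm2 and Ifitm3 thus had the largest differences of the 7 members, beside 25.9-fold for the summed microglia markers, and the value of Ifitm2 carries the doubt about its shared sequence.

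Against the co-cultures, all 7 members were higher in the microglia, against 24.3% of all genes. The log2 difference was 4.51 ± 0.08 for Ifitm2 and 4.02 ± 0.09 for Ifitm3, but 1.47 ± 0.17 for Ifit1, 1.61 ± 0.09 for Ifit2, 1.73 ± 0.19 for Ifit3b and 2.25 ± 0.18 for Ifit3, with 2.80 ± 0.38 for Ifitm1 (adjusted p from 6.42e-27 to 2.00e-07, edgeR). As folds these ranged from 2.76 for Ifit1 and 3.04 for Ifit2 to 22.7 for Ifitm2, beside 112 for the summed microglia markers. The levels of all 7 members thus differed less between these experiments than the marker sum did. Which cells of the co-culture made this RNA was not measured.

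Against the PFC, the co-cultures were lower in Ifit3 (log2 difference -2.65 ± 0.18), Ifit3b (-1.25 ± 0.21) and Ifitm1 (-3.74 ± 0.33), with adjusted p of 2.99e-13, 4.96e-06 and 7.42e-11 (edgeR). These were 3 of 7 members, against 20.5% of all genes. For Ifit1 and Ifitm3 the 2 experiments were close, with differences of -0.11 ± 0.20 and -0.01 ± 0.12. The order of the members per length was the same with the longest single transcript in place of the summed exons, with 0 of 21 places changed.

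**Figure D3:**
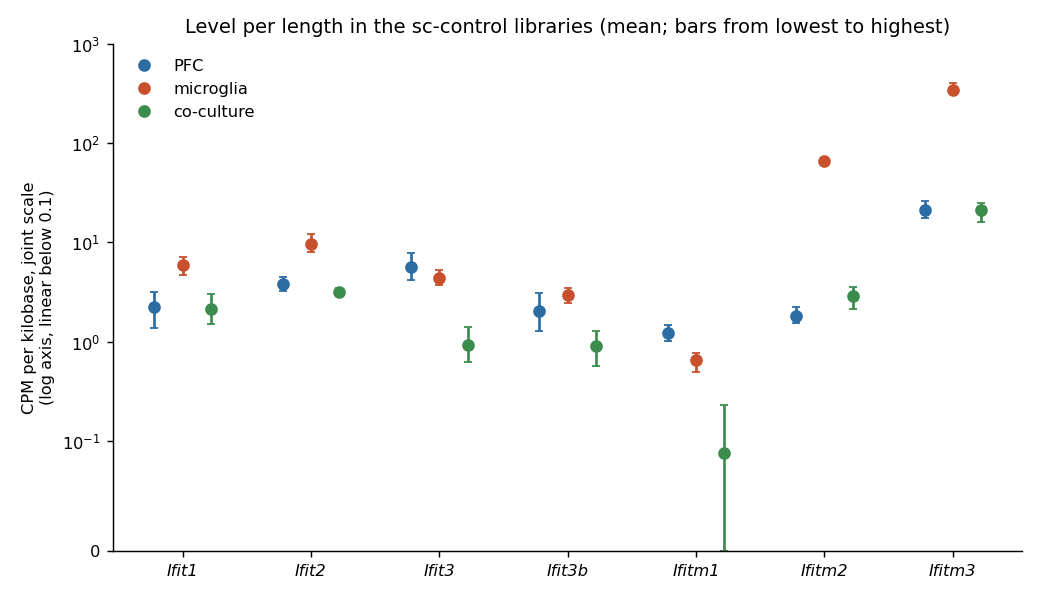
Level of each member in the sc-control libraries as CPM per kilobase of exon on the joint scale, on a log axis that is linear below 0.1, with the mean as a point and bars from the lowest to the highest library. Microglia (orange) are far above the PFC (blue) and the co-cultures (green) for Ifitm2 and Ifitm3, and the co-cultures are the lowest for Ifit3, Ifit3b and Ifitm1.

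Ifit3, and to a lesser degree Ifit3b, did not follow Ifit1 between experiments. In the PFC there were 2.19 to 2.86 Ifit3 counts per Ifit3b count in the sc-control libraries and 2.53 to 3.26 in the anti-miR-99b libraries. In the microglia there were 1.24 to 1.34 and 1.16 to 1.29. In the co-cultures there were 0.639 to 1.2 and 0.90 to 1.39. The 6 PFC libraries thus lay above all 23 libraries of cultures. Against Ifit1, the ratio of Ifit3 counts was 1.23 to 2.04 over the 6 PFC libraries, 0.431 to 0.542 over the 8 microglia libraries and 0.246 to 0.458 over the 15 co-cultures. The ratio of Ifit3b counts to Ifit1 counts was 0.479 to 0.737, 0.348 to 0.437 and 0.208 to 0.472 in the same order. The PFC was highest here too, by a narrow margin. The PFC came from C57BL/6J mice and both cultures from CD1 mice, the mm10 genome is that of C57BL/6J, and a large part of Ifit3 is identical to Ifit3b over a read's length. Strain, tissue and the mapping of reads cannot be told apart here. Ratios between experiments that involve Ifit3 or Ifit3b are therefore uncertain, while both genes were counted in the same way within an experiment.

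**Figure D4:**
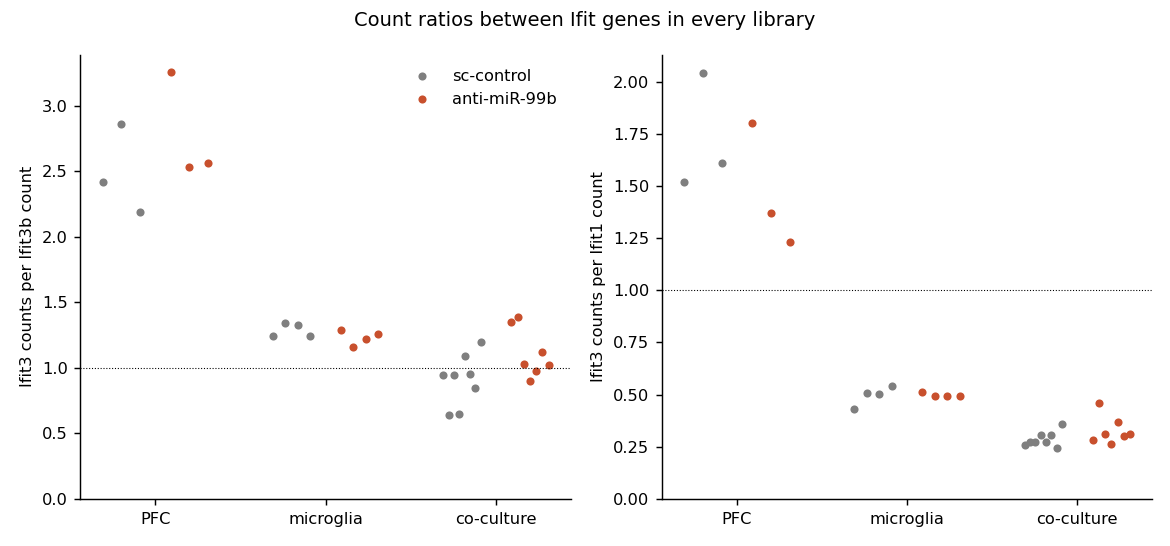
Counts of Ifit3 per count of Ifit3b (left) and per count of Ifit1 (right) in every library, grey for sc-control and orange for anti-miR-99b, not corrected for length. The dotted line is a ratio of 1. All 6 PFC libraries lie above every microglia and co-culture library in both panels.

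The other genes of the 2 families, and the pathway genes after them, are given in CPM scaled within each experiment. Of Ifit1bl1, Ifit1bl2, Ifitm5, Ifitm6, Ifitm7 and Ifitm10, 4 could be tested in PFC libraries and 3 in either culture experiment. Ifit1bl1, an Ifit1-like gene, was called higher in the microglia at 1.21 ± 0.310 against 0.564 ± 0.205 CPM (SD, n = 4 each, log2FC 1.13 ± 0.25, adjusted p = 0.0421, edgeR), and it shares part of its sequence with Ifit1. No other was called in any experiment. Ifitm10, a distant member of its family, was at 18.7 ± 2.44 against 17.0 ± 0.831 CPM in the PFC (SD, n = 3 each), and Ifitm6, found in myeloid cells, at 7.46 ± 0.635 against 7.03 ± 1.69 CPM in the microglia (SD, n = 4 each). Of 7 genes whose proteins modify or bind IFIT and IFITM proteins, such as Zdhhc20, which attaches palmitate, Nedd4, which attaches ubiquitin, and Setd7, which attaches methyl groups, none was called in any experiment. The lowest p among them was that of Setd7 in the co-cultures, with a log2FC of -0.06 ± 0.02 (adjusted p = 0.202, edgeR).

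The pathway that induces the members was read from a list of 36 genes. The 5 interferon ligands (Ifnb1, Ifna2, Ifna4, Ifna5 and Ifng) had too few counts to be tested in any experiment. None of the 4 receptor genes and neither of the 2 kinase genes was called in any experiment, and the median log2FC of the receptors lay between 0.01 and 0.04. Of 6 transcription factor genes, 3 were called higher in the microglia, against 0.435% of all genes tested there. Irf7 and Stat2 were among them, and no transcription factor gene was called in the other experiments. Irf7, which amplifies the response, rose in the microglia from 34.4 ± 6.75 to 53.2 ± 8.84 CPM (SD, n = 4 each, log2FC 0.65 ± 0.11, adjusted p = 0.0106, edgeR). Of 3 inhibitors, Usp18, which removes ISG15 from proteins and quenches the receptor, was called in the microglia, at 18.3 ± 4.14 against 11.8 ± 2.56 CPM (SD, n = 4 each, log2FC 0.66, adjusted p = 0.0272, edgeR).

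Of the 16 other effectors, 13 were called higher in the microglia, 1 in the PFC and 1 in the co-cultures. The shares of all genes tested that were called higher were 0.435%, 0.0864% and 0.846% in the same order. Whether DESeq2 called these effectors is not given here. In the microglia Zbp1, a sensor of unusual nucleic acids, rose from 11.4 ± 2.09 to 17.2 ± 2.15 CPM (log2FC 0.61 ± 0.10), and Eif2ak2, the kinase that halts translation, from 69.4 ± 5.80 to 83.7 ± 3.54 CPM (log2FC 0.27 ± 0.05; adjusted p = 0.0106 and 0.0115, edgeR). Oas1a, which makes oligoadenylates, and Ddx58, an RNA sensor, had log2FC of 0.40 ± 0.07 and 0.39 ± 0.07 there (adjusted p = 0.0219 and 0.0238, edgeR). In the PFC all 16 had a log2FC above 0, with a median of 0.92, but only Mx2, a dynamin-like antiviral GTPase, passed, with a rise from 2.30 ± 0.384 to 6.29 ± 1.17 CPM (SD, n = 3 each, log2FC 1.45 ± 0.18, adjusted p = 0.0320, edgeR). Mx1, Zbp1, Stat2 and Oasl2 followed by p-value in the PFC, with log2FC of 1.44 ± 0.28, 1.01 ± 0.19, 0.40 ± 0.08 and 1.07 ± 0.24, and did not pass (adjusted p from 0.197 to 0.281, edgeR). In the co-cultures Rsad2, which blocks the copying of viral RNA, rose from 3.52 ± 0.539 (SD, n = 8) to 4.58 ± 0.475 CPM (SD, n = 7; log2FC 0.39 ± 0.09, adjusted p = 0.0254, edgeR). There Irf7, Ifih1, Stat2 and Ifi44 had log2FC of 0.54 ± 0.14, 0.24 ± 0.07, 0.11 ± 0.03 and 0.52 ± 0.18 and did not pass (adjusted p from 0.0577 to 0.188, edgeR). Over the whole list, the log2FC was above 0 for 27 of 31 genes tested (PFC), 30 of 31 (microglia) and 28 of 30 (co-cultures), with medians of 0.58, 0.27 and 0.14. Over all genes these medians were 0.00 and the shares above 0 were 50.6%, 51.6% and 51.6%.

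Within experiments the members varied together from library to library. After the mean of each experiment was subtracted from log2(CPM + 0.5), Pearson's r over the 29 libraries lay between 0.790 and 0.928 for the 6 pairs among Ifit1, Ifit2, Ifit3 and Ifit3b. It was 0.641 for Ifitm2 with Ifitm3 and between 0.424 and 0.682 for pairs of an Ifit gene with Ifitm2 or Ifitm3. These values are a description, since the points share treatment, lane and library, and the pair Ifit3 and Ifit3b shares sequence. Among 13649 other genes tested in all 3 experiments, the 5 most like Ifit1 were Rnf213 (r = 0.946), Irgm1 (0.940), Usp18 (0.934), Rtp4 (0.933) and Ifit3 (0.928). The 5 most like Ifitm3 were Bst2 (0.886), Epsti1 (0.877), Lgals9 (0.859), Lgals3bp (0.833) and Dhx58 (0.830). No gene was in both sets.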

How the data were processed

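RNA-seq of 29 libraries was read from 3 tables of raw counts. The authors sequenced 50-base single reads, and the labels name bcl2fastq 2.20.2, FastQC 0.11.5, STAR 2.5.2b, featureCounts 1.5.1 and mm10. They deposited the counts per Ensembl gene without normalization. Annotation release, strand and multi-mapping settings are not given in the sources used here. Of 48709 identifiers, 48349 matched a GENCODE M21 symbol, and 0 columns lacked a sample.

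Each experiment was fitted alone in R 4.3.3 with edgeR 4.0.16 (filterByExpr, TMM, quasi-likelihood test, two-sided, Benjamini-Hochberg over all genes tested). PFC and co-culture thresholds follow the study, and for the microglia, where none is stated, an adjusted p under 0.1 and a log2FC beyond 0.1 were used. The SE is the log2FC over the root of F. Exact permutation tests (21, two-sided, unadjusted) used log2(CPM + 0.5). Alternatives were DESeq2 1.42.0, RLE factors, other filters, lane and replicate blocks, a RUVs factor written out in R, Ifit3 and Ifit3b summed, and replicates left out. PFC lane 6 alone, crossed pairing and co-culture replicates left out were added after seeing the data. The fits were tested on simulated data.

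The members, lists and tests were chosen with earlier results of these data known. Named were the 7 members, up to 5 genes per list and experiment by lowest p, and the 5 genes most like Ifit1 and Ifitm3; Usp18 and the markers at 0 were named after their values were seen. Libraries of equal number were checked for pairing by the correlation of their deviations from group means. No libraries agreed within sampling noise. Protein sequences were not analysed here. Some marker genes are not reported here.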

Additional observations from a re-analysis of the deposited data

Results flagged for a closer look

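Ifitm2 was at 2.69 CPM (81 counts) in replicate 10 of the anti-miR-99b co-cultures, with the nearest of the other 6 libraries at 2.08 CPM. The gap is 0.570 of the range of the group, just above Dixon's 95% critical value for 7 libraries. It was 1 of 28 groups of libraries examined, and chance flags about 1 group in 20.

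The anti-miR-99b effect on Ifitm3 differed between the PFC and the co-cultures by 0.54 on the log2 scale in a test of the difference itself (edgeR, adjusted p = 0.0945). The effect was 0.57 ± 0.14 in the PFC and 0.03 ± 0.08 in the co-cultures, and the experiments differ in strain, age, time to collection and in which cells received the LNA.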

How the results depend on the processing

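With the main settings 4 members were called in the microglia and 0 in either other experiment. In the PFC, DESeq2 called 1 (Ifitm3), the fit without a filter on low counts 4, lane as a block 4, a RUVs factor 4 and the lane 6 libraries alone 3, and leaving out 1 replicate gave 0 to 2. In the microglia DESeq2 called 1, a RUVs factor and the fit without a filter 5 each (Ifitm3 added), and leaving out 1 replicate gave 0 (without sc-control replicate 4) to 5. The effect differed between the PFC and the co-cultures in 1 member, and in 2 both without a filter and by DESeq2, with 0 to 3 when 1 replicate was left out. Between the PFC and the microglia the range was 0 to 1. Between the microglia and the co-cultures it was 0 to 1, and 1 (Ifit2) without a filter. The cause of these changes was not tested. In the microglia the fit without a filter gave an unadjusted p of 7.60e-47 for Ifit2 (edgeR, 4 against 4 libraries). Calls by the fits without a filter therefore carry little weight. Among these alternatives, the share of all genes called is given only for lane as a block in the PFC. The other counts of members thus stand without that background. Directions turned for values near 0: Ifit2 in the PFC (-0.02 to 0.40 with 1 replicate left out), and in the co-cultures Ifitm2 (-0.12 to 0.04), Ifitm3 (-0.02 to 0.07, and -0.01 with lane as a block). Baseline counts of members called, with 1 PFC or microglia replicate left out, were 4 to 5 (microglia against PFC), 2 to 3 (co-culture against PFC) and 7 (microglia against co-culture), and the other alternatives run stayed within 1.5 times the main count.

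Replicate numbers do not pair the samples as far as the labels say. Deviations of same-numbered libraries had mean correlations of -0.118 (PFC), -0.0443 (microglia) and 0.0125 (co-cultures). A replicate block, which in the PFC leaves 2 pairs, called 5 members there, 5 in the microglia (Ifitm3 added) and none in co-culture, where the log2FC of Ifit3b became -0.10. Crossing the 2 PFC pairs, tried after seeing the data, also called 5. The share of all genes called by these block fits is not given. For Ifit1 in the PFC the replicate block and its crossed form gave unadjusted p of 1.93e-32 and 1.17e-32 (edgeR), from 2 pairs each. Such p-values are not taken as a measure of the spread between mice, so these calls carry little weight.

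Depth limits Ifitm1 most, with at most 8 counts in a co-culture library.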
